A study of Mus musculus with 24 samples.

Results

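Transcripts of the major histocompatibility complex (MHC) region and of antigen presentation were compared in the colon and liver of 12 mice. The genes were taken by name: every gene of the array whose name starts with H2-, together with B2m, Tap1, Tap2, Tapbp, Cd74 and Ciita. This gave 42 of the 27962 gene names on the array, with 64 of its 41174 probes, and 41 of these genes carried such a name while 1, Ciita, was listed under an older symbol and was matched through its accession. Each gene was represented by its probe with the highest mean intensity, called its main probe, and 14 genes had further probes. By function 29 genes belonged to class I, 11 to class II and 2, H2-Ke2 and H2-Ke6, carry an H2 name for their position only.

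The mice were female C57BL/6 offspring whose dams ate high-fat chow with little selenium and folate (HF-low) before mating and through gestation and lactation. After weaning 6 offspring stayed on that diet (HF-low-low) and 6 received high-fat chow in which both nutrients were sufficient (HF-low-suf), so all mice shared the maternal diet and high fat intake, and no mouse on another maternal diet was in the comparison. Colon and liver of the same 12 mice were taken whole at 12 weeks of age, which gave 4 groups of 6 arrays. Each sample was labelled with Cy3 and hybridised against a Cy5 pool, which the paper describes as intestinal and liver RNA of all mice. A level is given as log2 Cy3/Cy5. At 0 the normalized signals of the dyes are equal, which need not mean the same amount as in the pool, since every sample was in Cy3. In whole tissue, fewer cells of a type and less RNA per cell cannot be told apart.

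Class I molecules present peptides from the cell's own proteins to CD8 T cells. Each consists of a heavy chain, such as H2-K1 or H2-D1, and the light chain beta-2-microglobulin (B2m), and receives peptides from the transporter Tap1-Tap2 with the help of tapasin (Tapbp). Class II molecules, H2-Aa with H2-Ab1 and H2-Ea with H2-Eb1, present peptides of ingested proteins to CD4 T cells. They are made mainly by B cells, dendritic cells and macrophages, carry the invariant chain Cd74, are loaded by H2-DM, which H2-O inhibits, and are transcribed under the control of the transactivator Ciita. C57BL/6 mice are known to carry a deletion in H2-Ea.

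The tissue labels were checked with marker genes. All 10 colon epithelium markers were higher in colon and all 9 hepatocyte markers measured were higher in liver. Per array, Cy3 signals had a median of 3.78 to 7.20 times the local background and 25.6% to 71.5% of probes were well above background, and the number of arrays limits the precision. In 2 arrays the reference channel was bright: its median was 18.1 times background on the array of colon HF-low-suf replicate 5 and 12.7 times background on that of liver HF-low-suf replicate 4, the latter with 8.75% of spots marked as outliers. Without both, the same numbers of the 42 genes passed the tests described here (4 higher in colon, 10 higher in liver, 0 between diets).

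The class I heavy chain genes are close relatives, so the sequences on the array decide which transcript a spot reports. The main probe of H2-Q10 and that of H2-Q5 share a run of 35 of their 60 bases, and their tissue differences were -0.79 and -0.81. Another H2-Q10 probe shares 20 bases with a second H2-K1 probe, while the H2-Q10 probe with the largest difference shares no run of 20 or more bases with a probe of another name. Windows of 30 bases from these probes are printed with the shared run, as far as it lies in the window, in capitals.
H2-Q10 main probe: TGGTGGTGCCTCTTGGGAAGGAGCAgaatt
H2-Q5 main probe: agaagTGGGCATCTGTGGTGGTGCCTCTTG
H2-Q10 other probe: cgacgCAAGTGGGAGCAGGCTGGTGctgca
H2-K1 other probe: aaacaCAAGTGGGAGCAGGCTGGTGaagca
H2-Q10 probe without a shared run: tgctgatctgctgtggccatcattaaagct
H2-T23 main probe: catccTTGGAGCTGTGGTGGCTTTTGTGAT
H2-Q7 main probe: catcaTTGGAGCTGTGGTGGCTTTTGTGAT
H2-T23 and H2-Q7 share 28 bases, and their tissue differences were -0.12 and -0.23. In all, 9 of the 64 probes, 6 of them main probes, shared at least 20 bases with a probe of another name. Probes were compared with each other and not with a genome, and the values of these genes are uncertain to the extent that their transcripts can bind each other's probes.

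Promoters of the genes were read from RefSeq (GRCm38.p6), which held a 300-base promoter, 250 bases before and 50 after the start, for 30 of the 42 genes. Class II promoters are known for an X and a Y box, and class I promoters for a kappa B site and an interferon-stimulated response element (ISRE). Windows of 2 class II chains and 3 class I heavy chains are shown so that the letters can be compared between the classes. Capitals mark ATTGG (Y box), AGCAAC (core of the X1 box), TGACG (core of the X2 box), GGGGATTCC (kappa B) and TTTCACTT (core of the ISRE), searched on both strands, so that CCAAT is the Y box on the other strand and TGACGTCA holds TGACG on both.
H2-Aa, chr17:34287844-34287933, minus strand: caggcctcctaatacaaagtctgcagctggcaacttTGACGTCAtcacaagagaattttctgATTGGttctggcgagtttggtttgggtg
H2-Eb1, chr17:34305757-34305846, plus strand: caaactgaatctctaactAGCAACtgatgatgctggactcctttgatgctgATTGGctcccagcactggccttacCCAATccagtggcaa
H2-D1, chr17:35262914-35263053, plus strand: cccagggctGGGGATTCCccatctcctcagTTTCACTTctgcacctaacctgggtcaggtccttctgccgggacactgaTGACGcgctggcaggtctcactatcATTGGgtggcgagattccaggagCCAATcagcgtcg
H2-K1, chr17:34000354-34000473, minus strand: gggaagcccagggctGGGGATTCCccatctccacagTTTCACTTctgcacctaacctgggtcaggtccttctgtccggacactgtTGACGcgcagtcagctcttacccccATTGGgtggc
H2-Q10, chr17:35469909-35470048, plus strand: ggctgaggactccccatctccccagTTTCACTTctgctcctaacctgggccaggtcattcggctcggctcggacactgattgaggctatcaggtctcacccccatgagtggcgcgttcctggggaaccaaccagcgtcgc
ATTGG was found in 19 of 21 class I and 7 of 7 class II genes with a promoter, against 37.4% of all 32851 promoters. TTTCACTT was found in 7 of 21 class I and 0 of 7 class II genes, against 1.6% of all promoters, and GGGGATTCC in 3 and 0, against 0.25%. AGCAAC was found in 2 of 21 class I and 3 of 7 class II genes, against 14.8% of all promoters, and TGACG in 11 and 1, against 20.8%. In the printed windows the ISRE letters stood in all 3 class I genes, whereas GGGGATTCC and TGACG stood in those of H2-K1 and H2-D1 and not in that of H2-Q10. A match to these letters is a description and was not tested as a binding site.

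Most class I genes that differed between the tissues were higher in liver, while only 2 of the 11 class II genes were called, both higher in colon and both near the threshold. Of the 42 genes, 4 were higher in colon (H2-T3, Tapbp, H2-Eb1 and H2-Ab1) and 10 were higher in liver (H2-Q8, B2m, H2-T22, H2-T10, H2-Ke6, H2-D4, H2-Bl, H2-Q5, H2-Q10 and Tap1), at a Benjamini-Hochberg adjusted P below 0.05 over all probes and a fold change above 1.5. Over all 41174 probes 12.2% were called higher in colon and 11.4% higher in liver by the same rule. With median centring in place of loess the split of the 42 genes was 7 higher in colon and 7 higher in liver, and 3 further class II genes, H2-Aa, Cd74 and H2-DMb1, were called higher in colon. Among class I genes 2 were called higher in colon, 9 higher in liver and 18 not called, with a median difference of -0.16 (log2, colon minus liver). Called H2-D4, H2-Bl, H2-Q5 and H2-Q10 moved alike between arrays. In colon, HF-low-suf minus HF-low-low was -0.87, -0.73, -0.61 and -0.67 on slide 2 and 0.92, 0.97, 0.97 and 1.08 on slide 4. For B2m these were -0.65 and 0.81, for H2-T10 0.14 and -0.21 and for H2-Q8 -0.51 and -0.75. Whether the probes of such close relatives report separate transcripts was not tested, so these counts may hold the same signal repeatedly. Among class II genes 2 were called higher in colon, 0 higher in liver and 9 not called, with a median of 0.17, so that the share called lay near that of all probes. The median over all probes was -0.019, and no test of the lists was made. Over 17 other settings the class I median ran from -0.49 to -0.075 and the class II median from -0.0042 to 0.48.

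Many of these genes were dim. A gene was taken as detected where its main probe was well above background on at least 6 of the 12 arrays of a tissue, which held for 29 of the 42 genes, 29 in colon and 26 in liver, while 7 were above background on no array. Over the detected genes alone the median difference was -0.49 for 20 class I genes and 0.32 for 7 class II genes, against 0.030 for all 19080 detected probes, of which 24.5% were called higher in colon and 21.1% higher in liver. Being detected depends on the level in a tissue, so these medians are a description. Within each mouse, the median difference of the class I genes ran from -0.64 to 0.087 and that of the class II genes from -0.29 to 0.72, and the class II median was the higher in 11 of 12 mice.

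**Figure D1:**
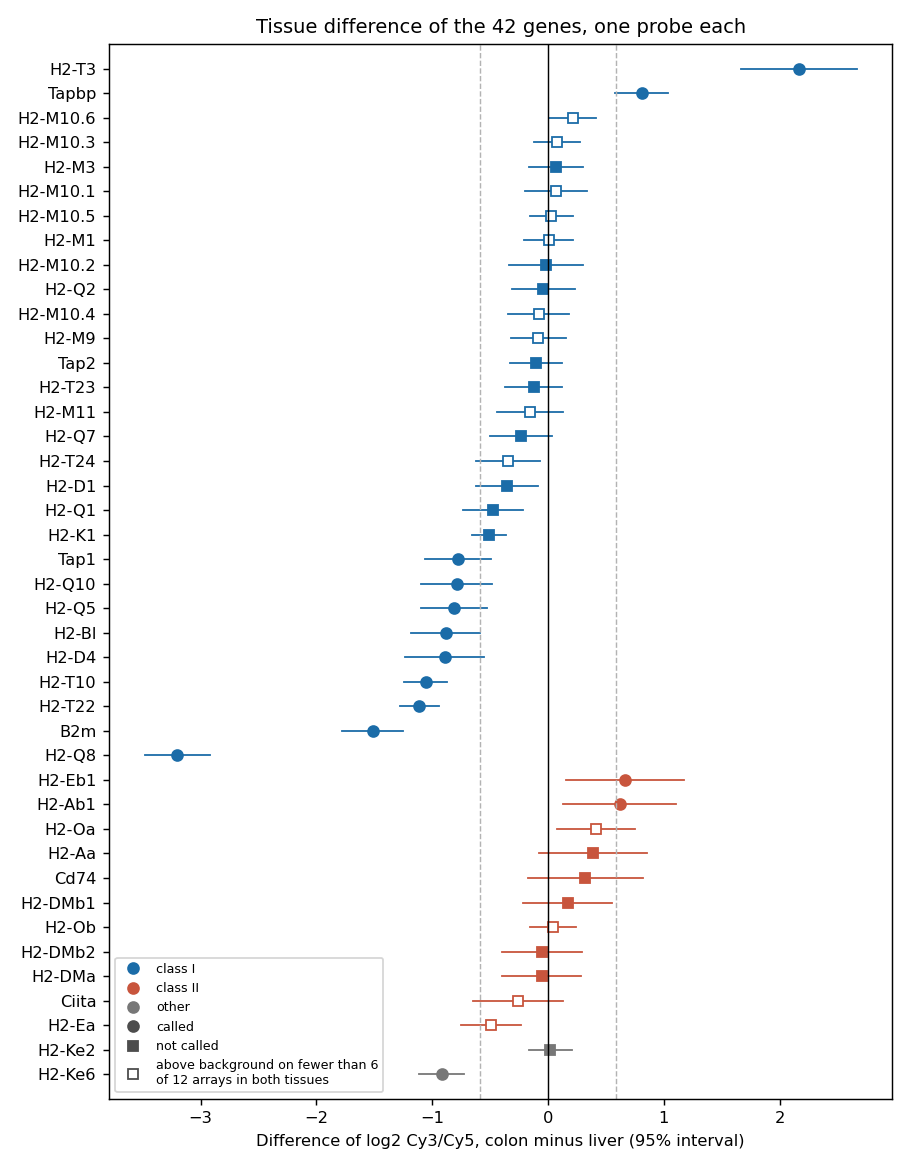
Difference of log2 Cy3/Cy5 between colon and liver for the 42 genes, with 95% intervals from the fit over 24 arrays. Circles passed the test and squares did not, open symbols were well above background on fewer than 6 of 12 arrays in both tissues, and dashed lines mark a fold change of 1.5. Of the class I genes 9 lie past the left line and pass the test, and 2 pass on the right, whereas the 2 class II genes that pass both lie on the right.

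The 3 genes listed as classical class I heavy chains had lower mean levels in colon, and 1 of them, H2-D4, was called. H2-K1, the K heavy chain, ranged from -0.49 to -0.17 in the 12 colons with a median of -0.35, and from -0.091 to 0.35 in the livers with a median of 0.23. The tissues did not overlap, and liver was higher in all 12 mice, but the difference of -0.51 (SE 0.072, adjusted P = 1.36e-06) was a fold change of 1.42 and did not reach 1.5, though it did without background correction (-0.59). Its other probes gave -0.61 and -0.79, and both were called higher in liver. H2-D1, the D heavy chain, had medians of -0.45 in colon and -0.0030 in liver with overlapping tissues and a difference of -0.35 (SE 0.13, adjusted P = 0.0345, fold change 1.28). H2-D4, listed beside it 2.7 kb away, was called higher in liver at -0.89 (SE 0.16), with colon lower in 11 of 12 mice. No current symbol was found for H2-D4, so it is uncertain whether it is a gene separate from H2-D1 in these mice.

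B2m was called higher in liver. It ranged from -2.81 to -1.25 in colon (median -1.90) and from -0.63 to -0.13 in liver (median -0.30). The tissues did not overlap and every mouse had the higher level in liver, with a difference of -1.52 (SE 0.13, adjusted P = 1.51e-10, exact sign-flip P = 0.000488 over 12 mice, two-sided, the smallest this test can give). Its other probes gave -1.79 and -0.91.

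The genes of peptide loading went different ways. Tap1 ranged from -1.85 to -0.22 in colon and from -0.89 to -0.022 in liver, and its level was higher in liver in all 12 mice although the tissues overlapped. The difference was -0.78 (SE 0.14, adjusted P = 3.34e-05), and 9 arrays of each tissue were well above background. With median centring in place of loess the call was lost at -0.39 (adjusted P = 0.0566). Tap2, its partner subunit, did not pass the test at -0.10 (SE 0.11, adjusted P = 0.522). Tapbp ranged from 0.046 to 0.64 in colon and from -0.99 to 0.074 in liver and was higher in colon in 12 of 12 mice, by 0.81 (SE 0.11, adjusted P = 7.32e-07). Its second probe, 2.9 kb away, gave 0.12 and was not called, so the Tapbp difference rested on 1 of 2 probes.

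Of the main probes, those of non-classical class I genes lay at both ends of the measured differences. H2-Q8, a gene of the Qa-2 group, ranged from -1.51 to -0.62 in colon and from 1.27 to 2.85 in liver, so that the highest colon lay far below the lowest liver. Its difference was -3.20 (SE 0.14, adjusted P = 6.56e-17), a fold change of 9.21. H2-T3, which encodes the thymus leukaemia antigen known from intestinal epithelium, ranged from -0.86 to 0.11 in colon and from -3.79 to -0.999 in liver. It was well above background on 12 colon arrays and on 1 liver array, so its liver level was mostly not measured and the size of its difference is uncertain. Colon was higher in 12 of 12 mice, and the measured difference was 2.17 (SE 0.24, adjusted P = 2.66e-08), against 4.01 with the signals processed by Feature Extraction.

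H2-T22 and H2-T10, a related pair known as ligands of gamma delta T cells, did not overlap between tissues either. H2-T22 ranged from -0.48 to 0.18 in colon and from 0.61 to 1.02 in liver, with a difference of -1.11 (SE 0.080, adjusted P = 5.13e-12). H2-T10 ranged from -0.25 to 0.46 in colon and from 0.89 to 1.53 in liver, with a difference of -1.06 (SE 0.090, adjusted P = 1.41e-10). Both were higher in liver in all 12 mice, and the second H2-T22 probe gave -0.91. H2-Bl (-0.88, SE 0.15) and H2-Q5 (-0.81, SE 0.14) were higher in liver in 11 of 12 mice each with overlapping tissues. The other H2-Bl probes gave 0.35 (adjusted P = 0.206) and -0.28 (adjusted P = 0.212), so the H2-Bl call rested on 1 of 3 probes, and with median centring its main probe gave -0.47, under the fold threshold.

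The 10 H2-M genes gave small values, from -0.16 to 0.21, and none was called. Only H2-M3 and H2-M10.2 were detected. The others were well above background on at most 1 array of a tissue, so their small values do not show equal levels. Of the 22 non-classical heavy chains 1 was called higher in colon, 6 higher in liver and 15 not called, and 13 of the 22 were detected. H2-M3, which presents formylated bacterial peptides, was detected in both tissues at 0.071 (adjusted P = 0.699). Of the 29 class I genes 6 did not overlap between the tissues, of the class II genes 0, and of the others 1 (H2-Ke6), together 7 of 42, against 12.5% of all probes. H2-Ke6, a hydroxysteroid dehydrogenase, was higher in liver at -0.92 (SE 0.095, adjusted P = 5.81e-09), or at -0.46 and under the fold threshold with median centring, and H2-Ke2, a prefoldin subunit, gave 0.019 (adjusted P = 0.907).

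Besides Tapbp and H2-Bl, further probes of H2-Q10, H2-Q1 and H2-D1 gave values far from that of the main probe. These genes were picked after their values were seen. The 4 probes of H2-Q10, which encodes a secreted class I molecule known from liver, lay within 2.3 kb of the main one and were all called higher in liver, at -0.79 for the main probe and at -2.17, -4.32 and -4.76 for the others. With the last probe, colon ranged from -3.20 to -2.68 and liver from 1.38 to 2.11, a fold change of 27.1, whereas with the main probe, which shares 35 bases with H2-Q5, the tissues overlapped. H2-Q1 gave -0.47 with its main probe, -0.95 with the second and 2.69 with the third, which was higher in colon in 12 of 12 mice. These other H2-Q1 probes lie at -63.2 and -60.5 kb relative to the main one. H2-D1 gave -0.35 with its main probe and 1.57 with another, which lies 996.8 kb from it and 23.4 kb from the H2-T3 probe. The single H2-Q5 probe lies 7.0 kb from that of H2-T10, away from the other H2-Q probes. These names come from the array and are therefore uncertain for H2-Q1, H2-D1 and H2-Q5, as is that of H2-D4.

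**Figure D2:**
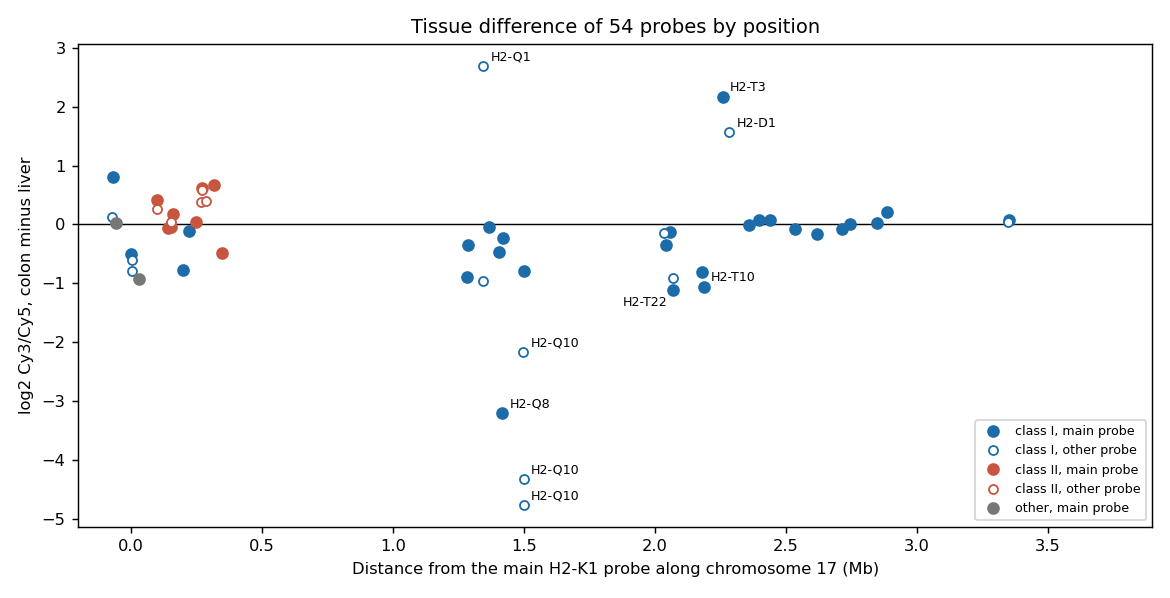
Tissue difference (log2 Cy3/Cy5, colon minus liver) of the 54 probes placed on chromosome 17, against the distance from the main H2-K1 probe in Mb, with filled symbols for main probes and open symbols for other probes. Class II probes lie together within 0.35 Mb of H2-K1, the probes with the largest differences are class I probes of the H2-Q and H2-T stretches, and the open H2-Q1 and H2-D1 symbols stand apart from the main probes of these genes.

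Along chromosome 17 (mm7, the build of the array files) 54 of the probes for 38 genes spanned 3423 kb. The H2-K1 probe lies at chr17:32074445-32074504, that of H2-Ab1 at chr17:32346939-32346998, that of H2-Q8 at chr17:33492583-33492642 and that of H2-T3 at chr17:34335139-34335492. B2m lies outside the region, at chr2:121893518-121893577. No annotation of this build was used, so exon and untranslated positions are not given. Neighbouring genes differed in size: Tap1 (-0.78) and Tap2 (-0.10) lie 21.2 kb apart among class II genes, and H2-Q8 (-3.20) and H2-Q7 (-0.23) 2.2 kb apart.

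Of the 4 class II chains 2 were called higher in colon, with wide overlap between the tissues. H2-Ab1, the beta chain of I-A, ranged from -1.77 to 0.20 in colon (median -0.60) and from -2.11 to 0.42 in liver (median -1.33), with a difference of 0.62 (SE 0.24, adjusted P = 0.0398) and colon higher in 10 of 12 mice. H2-Eb1, the beta chain of I-E, ranged from -1.07 to 1.48 in colon (median 0.45) and from -0.89 to 1.43 in liver (median -0.36), with a difference of 0.66 (SE 0.25, adjusted P = 0.0360) and colon higher in 9 of 12 mice. Both calls were near the threshold and were lost under 6 of 17 other settings. H2-Ab1 kept its call in 10 and H2-Eb1 in 11 of 24 fits that left out 1 array, and where the call was lost the adjusted P lay between 0.0501 and 0.0792. Without the mouse as a block the adjusted P was 0.0765 for H2-Ab1 and 0.0671 for H2-Eb1. The other H2-Ab1 probes gave 0.58, 0.39 and 0.26, none of them called.

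H2-Aa, the alpha chain of I-A, did not pass the test at 0.39 (SE 0.23, adjusted P = 0.210), nor did Cd74 at 0.32 (SE 0.24, adjusted P = 0.351, colon higher in 7 of 12 mice). The intervals of these differences, -0.082 to 0.86 and -0.18 to 0.82, include both no difference and that of H2-Eb1. With median centring in place of loess H2-Aa (0.79), Cd74 (0.68) and H2-DMb1 (0.59) passed the test. For the loading genes, H2-DMa gave -0.053 (adjusted P = 0.855), and H2-DMb1 0.17 (adjusted P = 0.550). H2-DMa was well above background on 11 colon arrays but only 5 liver arrays, so its difference is uncertain. H2-Oa was well above background on 5 colon arrays and 0 liver arrays, which allows only a bound of at least 1.06-fold higher in colon (measured difference 0.42, adjusted P = 0.0488, under the 1.5-fold threshold). H2-Ob and H2-Ea, the I-E alpha chain, were well above background on none of the 24 arrays, and Ciita on 5 colon and 2 liver arrays, so no direction is given for these.

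**Figure D3:**
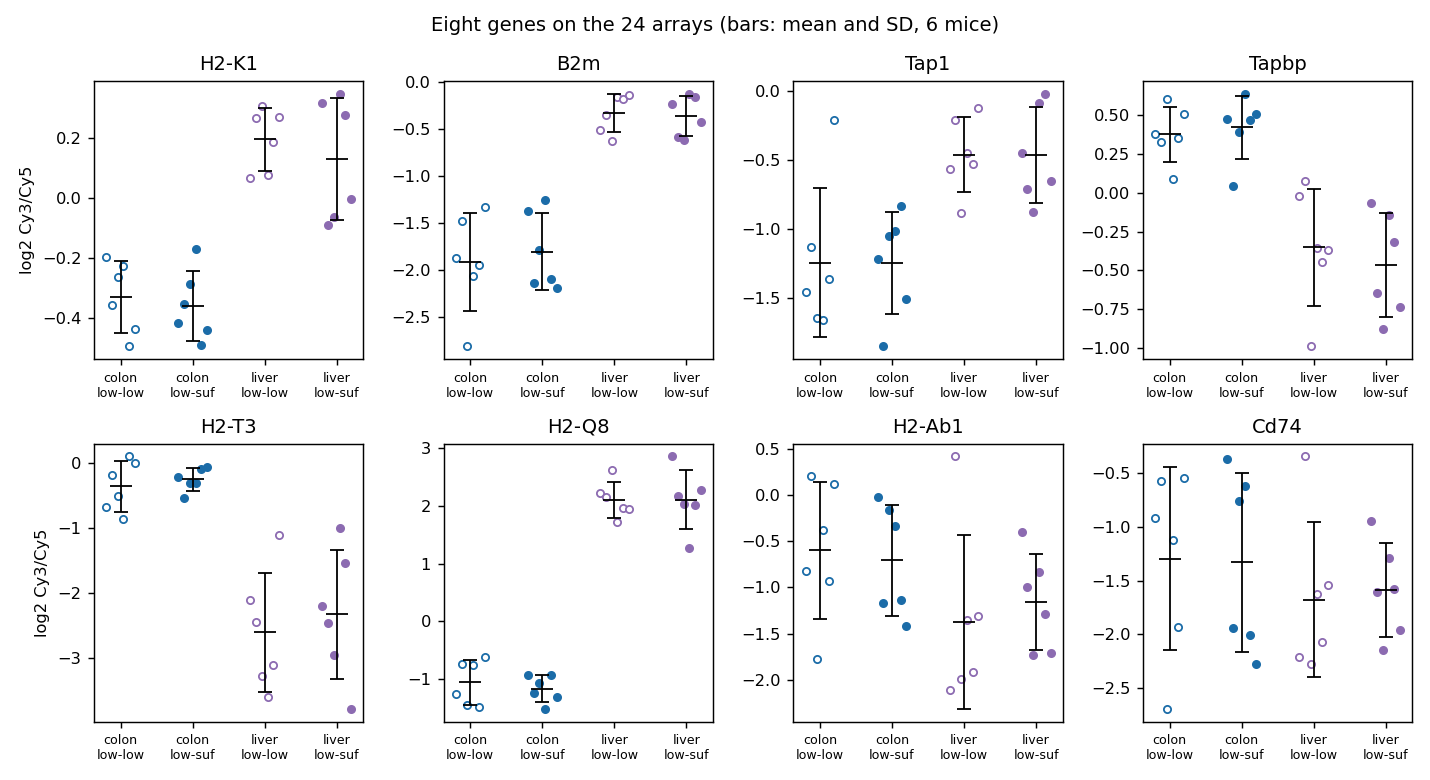
Log2 Cy3/Cy5 of 8 genes on the 24 arrays, with a point per mouse in the 4 groups (low-low is HF-low-low, low-suf is HF-low-suf) and bars for the mean and SD of 6 mice. The tissues separate for H2-K1, B2m, H2-T3 and H2-Q8, overlap for H2-Ab1 and Cd74, and the 2 diets overlap within each tissue in every panel.

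Class II levels varied widely between mice. The median SD over 12 mice was 0.48 in colon and 0.57 in liver for class II genes, against 0.30 and 0.34 for class I genes, as a description. The SD of Cd74 over 12 colons was 0.80, larger than that of 98.7% of the detected probes, and those of H2-Eb1, H2-Aa and H2-Ab1 exceeded 98.5%, 97.9% and 97.0%. In liver the SDs of these 4 genes exceeded those of 91.8% to 96.9% of detected probes. The main probe of H2-K1, the mean of 10 spots, had SDs of 0.11 in colon and 0.16 in liver, larger than those of only 1.43% and 8.69%, but its other probes, with 1 spot each, had SDs of 0.33 and 0.43 in colon and 0.48 and 0.54 in liver. The median SD over all detected probes was 0.27 in colon and 0.29 in liver. For the 5 class II genes detected in both tissues (Cd74, H2-Aa, H2-Ab1, H2-DMb1 and H2-Eb1) the highest and lowest mouse of a tissue differed 2.47- to 5.82-fold. The same liver, HF-low-low replicate 2, was the highest for all 5, and the same colon, HF-low-low replicate 3, the lowest for 4 of 5.

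Among the class II genes the relation of H2-Ab1 and Cd74 was tested. Over 12 colons H2-Ab1 and Cd74 correlated with r = 0.948 (rho = 0.951, permutation P = 2.0e-05, adjusted P = 8.0e-05 over 8 relations), and without the 2 colons farthest from the median of H2-Ab1 r was 0.900. Over 12 livers r was 0.986 (rho = 0.958, permutation P = 1e-05, the smallest 100000 resamples can give, adjusted P = 8.0e-05) and 0.953 without 2 livers. Within the 2 scan days r was 0.945 and 0.964 in colon and 0.992 and 0.989 in liver, with 6 mice each. The values of a pair come from the same array and the same pool, and array effects common to both were not separated.

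For H2-K1 and B2m, whose products form 1 molecule, the relation did not pass the test in either tissue. In colon r was -0.0010 (rho = 0.182, permutation P = 0.997, adjusted P = 0.997) and in liver 0.565 (rho = 0.497, permutation P = 0.0578, adjusted P = 0.0771), where it was 0.247 without 2 livers. With median centring in place of loess the liver relation passed the test at r = 0.849. Within scan days r was -0.501 and 0.415 in colon and 0.595 and 0.774 in liver. Tap1 and Psmb9, a subunit of the immunoproteasome, correlated with r = 0.834 in colon (rho = 0.741, permutation adjusted P = 0.0019) and 0.827 in liver (rho = 0.790, permutation adjusted P = 0.0019). The liver relation no longer passed with processed signals (r = 0.498) or with Cy3 alone (r = 0.505). Without 2 mice r was 0.690 and 0.784, and within scan days 0.770 and 0.880 in colon and 0.963 and 0.872 in liver.

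**Figure D4:**
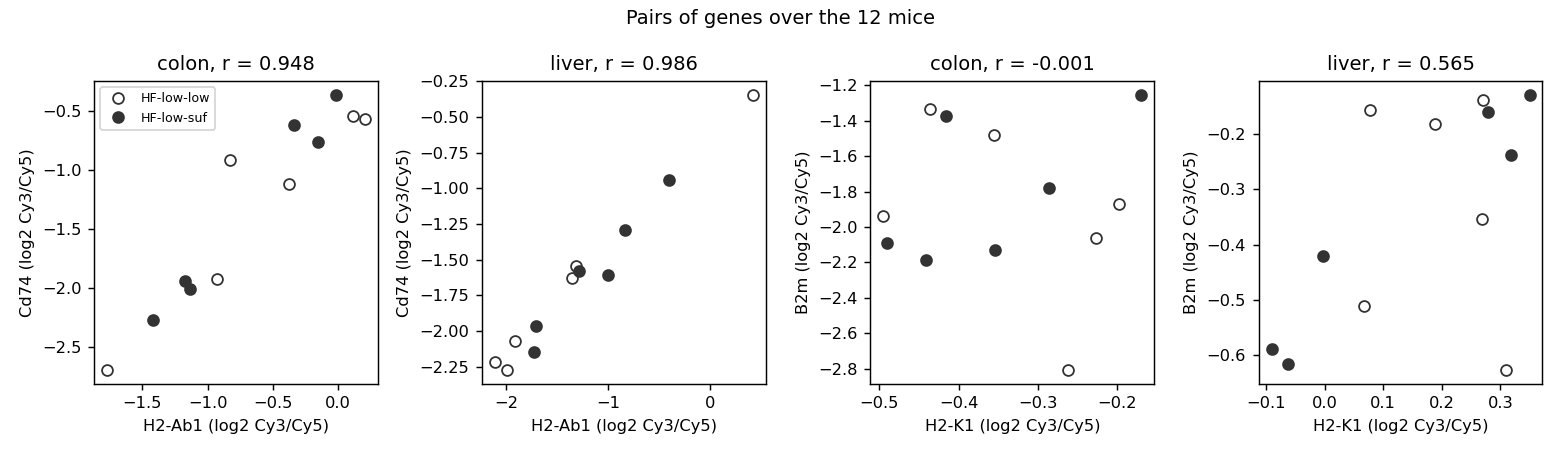
Levels (log2 Cy3/Cy5) of H2-Ab1 against Cd74 and of H2-K1 against B2m in the colon and liver, with a point per mouse and filled points for HF-low-suf. The points of H2-Ab1 and Cd74 lie close to a line in both tissues (r = 0.948 and 0.986), and those of H2-K1 and B2m do not (r = -0.001 and 0.565).

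Markers of cells that carry class II were compared beside these results. Over all probes 12.2% were called higher in colon and 11.4% higher in liver, or 24.5% and 21.1% of detected probes. Only the share of macrophage and Kupffer cell markers called higher in liver lay far above these. Of 9 B cell markers 2 were called higher in liver (Cd79b at -0.76 and Ms4a1 at -0.98) and 0 higher in colon, and 7 were above background on fewer than 6 arrays in both tissues. The mean level of the 9 markers on an array ran from -0.67 to 0.060 in the colons and from -0.35 to 0.29 in the livers. Of 10 macrophage and Kupffer cell markers 9 were higher in liver (Cd5l at -6.52, Clec4f at -4.99, Marco at -4.11 and Vsig4 at -3.18) and 0 in colon. All 10 were detected in liver and 5 in colon, so the size of a difference is uncertain for markers dim in colon. The mean level of the 10 ran from -1.14 to -0.23 in the colons and from 0.65 to 2.66 in the livers. Of 10 dendritic cell markers 1, Cd83, was higher in colon (by 0.91) and 0 in liver, with Siglech, Cd209a and Ccr7 above background on no array. The mean level of these 10 ran from -0.18 to 0.33 in the colons and from -0.33 to 0.36 in the livers. Of 9 T cell markers 1, Lck, was higher in colon (by 0.61) and 2, Zap70 and Cd3e, in liver, with mean levels from -0.58 to -0.018 and from -0.17 to 0.28. Of 6 plasma cell markers 1, Igj, was higher in colon (by 2.01) and 1, Sdc1, in liver, with mean levels from -1.05 to -0.058 and from -0.98 to -0.15. The part of these cells in the class I and class II differences was not tested.

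H2-Ab1 and Cd79b, a component of the B cell receptor, correlated over the 12 colons with r = 0.666 (rho = 0.720, permutation P = 0.0202, adjusted P = 0.0323), and rho had a permutation P of 0.0105 (adjusted P = 0.0168). Without the 2 colons farthest from the median of H2-Ab1 r was 0.437 (permutation P = 0.214), so that by r the relation rested on those colons. Within scan days r was 0.879 and 0.528. In liver r was 0.311 (rho = 0.196, permutation P = 0.327, adjusted P = 0.374), with 0.249 without 2 livers and 0.0502 and 0.888 within the scan days.

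Partner genes of class I presentation outside the 42 were called in both directions, in shares read against 12.2% of all probes higher in colon and 11.4% higher in liver, or 24.5% and 21.1% of detected probes. Of the 13 measured of 15 listed, 2 were called higher in colon, 3 higher in liver and 8 not called, which is near those shares. Psmb10, an immunoproteasome subunit, was higher in colon by 1.36 (SE 0.11), and Canx, the chaperone calnexin, by 0.80 (SE 0.12). Cd1d1, which presents lipids, was higher in liver at -5.02 (SE 0.12), and Hfe, a class I-like regulator of iron uptake, at -1.98 (SE 0.098). Of 11 class II partners 2 were higher in colon, 3 in liver and 6 not called, again near them in colon. The protease Ctss (1.95, SE 0.22) and the thiol reductase Ifi30 (1.33, SE 0.14) were higher in colon, the protease Ctsl (-2.35, SE 0.10) and the ubiquitin ligase March1 (-0.77, SE 0.12) in liver.

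Interferon gamma raises class I and class II transcription. Its list of 14 genes holds the receptor subunit Ifngr1 beside induced genes. Of these 14, 8 were called higher in liver and 3 higher in colon, against 11.4% and 12.2% of all probes and 21.1% and 24.5% of detected probes. Iigp1 (-4.66, SE 0.20), Igtp (-2.20, SE 0.16), both GTPases, and the chemokine Cxcl9 (-1.90, SE 0.19) were higher in liver, whereas the receptor subunit Ifngr1 was higher in colon (2.51, SE 0.11). The mean level of the list on an array ran from -1.91 to -0.79 in the colons and from -1.28 to -0.54 in the livers.

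No gene of the 42 passed a test between the diets. Differences are HF-low-suf minus HF-low-low with the sample in Cy3, as the labels give it. The study's lists state the same direction, but their printed signs are the reverse of those from the labels. The direction between the diets is therefore uncertain. With the rule of the study's methods (P below 0.01 without adjustment, more than 1.5-fold), 0 of 42 genes were called in colon, where 0.168% of all probes were called, and 0 in liver, where 0.117% were called. At an unadjusted P below 0.05 in limma the counts were 0 of 42 in both tissues, against 2.98% of all probes in colon and 2.13% in liver. The smallest unadjusted P of the 42 was 0.139 in colon (H2-Ea, not above background) and 0.130 in liver (H2-M10.6, not above background). No probe on the array passed adjustment, and the smallest adjusted P was 0.99994 in colon and 0.99999 in liver.

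The median diet difference in colon was 0.065 over the 29 class I genes and -0.10 over the 11 class II genes, against -0.0068 for all probes. In liver the medians were -0.0051 and 0.12, against 0.0054. In colon the largest positive differences among detected genes were those of H2-Bl (0.22, SE 0.20, exact permutation P = 0.344), H2-D4 (0.22, SE 0.22, exact permutation P = 0.422) and H2-D1 (0.19, SE 0.18, exact permutation P = 0.357). On slide 2 these genes gave -0.73, -0.87 and -0.61, and on slide 4 0.97, 0.92 and 0.79, so they need not be separate results. The largest negative differences were those of H2-DMa (-0.17, SE 0.24, exact permutation P = 0.550), H2-M10.2 (-0.16, SE 0.19, exact permutation P = 0.426) and H2-Aa (-0.14, SE 0.35, exact permutation P = 0.751). In every case the groups overlapped, and single colons moved these values: H2-DMa ran from -0.36 to -0.00032 and H2-Aa from -0.35 to 0.052 when 1 colon was left out.

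In liver the largest positive differences among genes detected in liver were those of H2-Ab1 (0.22, SE 0.38, exact permutation P = 0.652), H2-Ke6 (0.16, SE 0.15, exact permutation P = 0.288) and H2-Ke2 (0.13, SE 0.12, exact permutation P = 0.195). The H2-Ab1 value ran from 0.065 to 0.58 when 1 liver was left out, so its place in this order rested on single livers. The largest negative differences among these genes were those of Tapbp (-0.11), H2-T22 (-0.085) and H2-Bl (-0.068), which ran from -0.24 to -0.027, from -0.13 to -0.048 and from -0.21 to 0.053 when 1 liver was left out. The intervals were narrow for the main probe of H2-K1, from -0.28 to 0.22 in colon and from -0.33 to 0.20 in liver, so that a 1.5-fold change lay outside them. Another H2-K1 probe gave -0.24 to 0.72 and -0.67 to 0.57, which include such a rise in colon and such a fall in liver. They were wide for Cd74, from -0.88 to 0.81 in colon and from -0.56 to 0.74 in liver, and these include such a change in both directions in colon and a rise in liver. The diet effect differed between the tissues at an unadjusted P below 0.05 for 0 of the 42 genes, against 6.43% of all probes, and at an adjusted P below 0.05 for 0 probes in all.

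**Figure D5:**
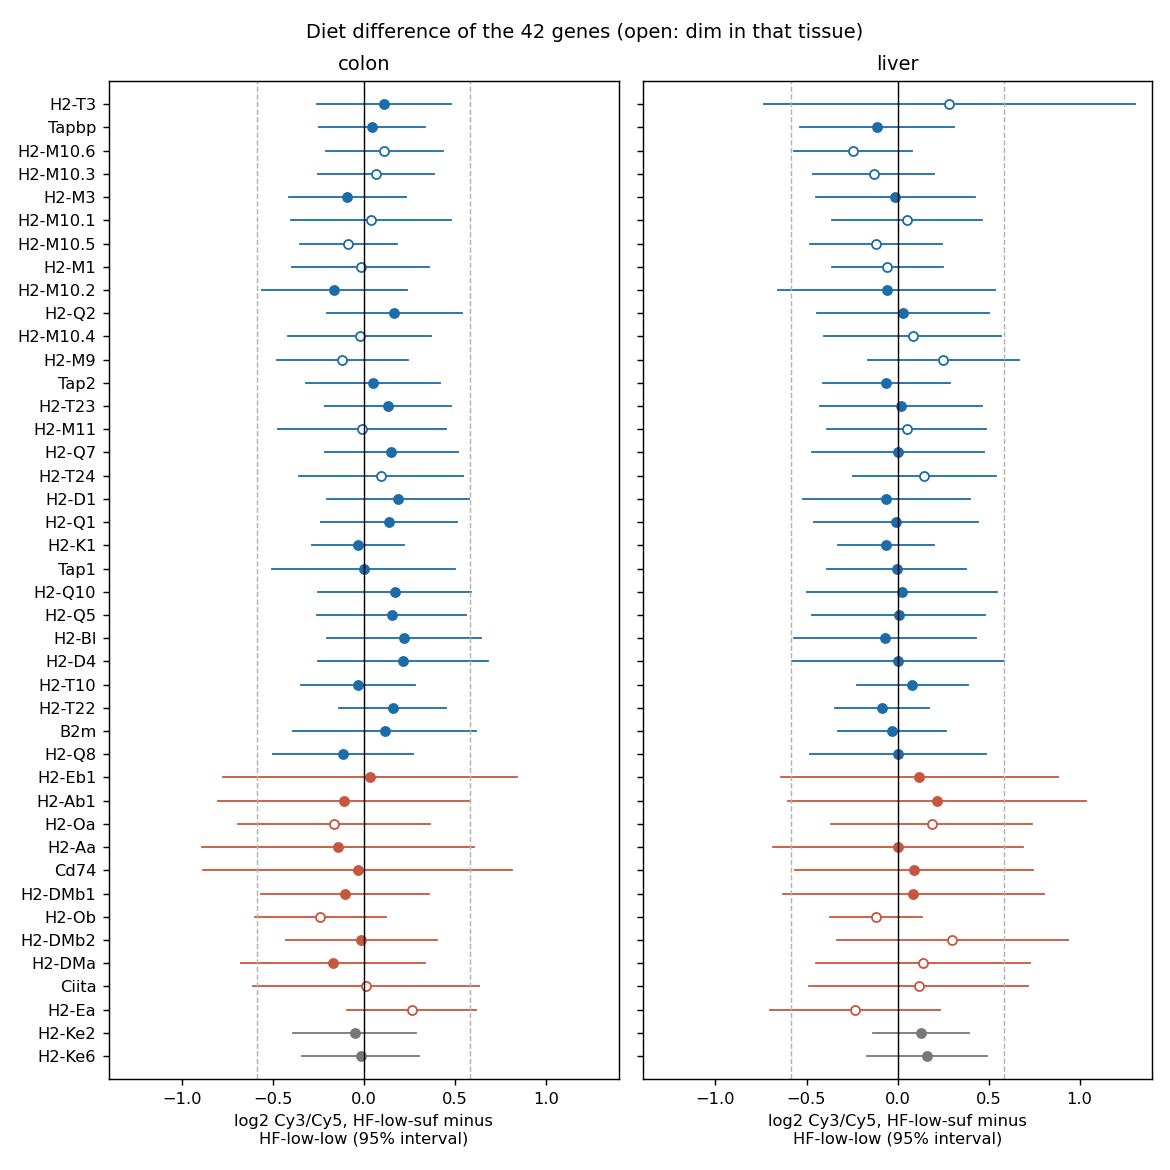
Diet difference (log2 Cy3/Cy5, HF-low-suf minus HF-low-low) of the 42 genes in colon and liver, with 95% intervals from the fits of 12 arrays. Class I genes are blue, class II genes red and the others grey, open symbols were well above background on fewer than 6 of the 12 arrays of that tissue, and dashed lines mark a fold change of 1.5. All 42 intervals in both tissues include 0, and among genes detected in a tissue the widest interval of that tissue is that of a class II gene.

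Among the partner genes 0 were called between diets in either tissue. Of the class I partners Mr1, which presents vitamin metabolites, had an unadjusted P of 0.0308 in colon, and of the class II partners Cd86, a costimulatory ligand, 0.0116, both without passing adjustment and both above background on fewer than 6 colon arrays. In the B cell list Fcer2a was called in liver (unadjusted P = 0.00902) but was well above background on only 1 of the 12 livers.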

How the data were processed

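RNA of 12 colons and 12 livers was measured on 24 arrays, on 6 slides of 4, with 1 array of each group per slide and 3 slides on each of 2 scan days. The authors deposited 1 scanner file per array, written by Feature Extraction 9.5.3.1, with probe positions in mm7. The intensity values used are the mean Cy3 and Cy5 signals and the median local background of each spot, as deposited, without correction. The processed intensity in those files, which Feature Extraction background subtracted and dye normalized, was used as an alternative, and its log10 ratio was not used. The diet groups are those of the labels. The study's methods name global loess and limma, and call a gene at P below 0.01 without adjustment and more than 1.5-fold.

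The background was removed by normexp with an offset of 50 and each array was loess normalized, outlier spots and 1639 control spots of 45018 were left out, and repeated spots were averaged to 41174 probes (limma 3.58.1, statmod 1.5.0, R 4.3.3). For colon against liver the fit took all 24 arrays, and each mouse was a random block (correlation 0.158), while the diets were compared over 12 arrays per tissue without a block, with lmFit and eBayes. Fits that leave out 1 array kept the correlation of all 24. Exact tests used 924 assignments of mice to diets or 4096 sign flips, two-sided, and relations 100000 resamples. Gene names are those of the array. The tests were tested on simulated data.

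Named genes are 16 fixed presentation genes, the 8 other called and detected genes with the largest tissue differences, the 3 largest rises and falls per tissue between diets, and the 4 largest called partner genes per list. The genes, lists and rules were chosen with earlier results of these data known. A value that did not pass a test was counted as reversed only where it changed sign and moved by more than its SE. Samples from separate mice are the replicates. Every sample was in Cy3 and the pool in Cy5, so a dye effect that is the same on all arrays cancels from the differences between groups.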

Additional observations from a re-analysis of the deposited data

Results flagged for a closer look

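In 5 of 96 groups of 6 mice (24 named genes in 4 groups) a single array lay far from the rest by Dixon's test, and chance gives about 1 in 20. H2-Ab1 in liver HF-low-low replicate 2 was 0.42 while the other 5 livers of the group lay between -2.11 and -1.31. H2-Eb1 in the same liver was 1.43 while the others lay between -0.89 and -0.34. Tap1 in colon HF-low-low replicate 6 was -0.22 while the others lay between -1.66 and -1.13. H2-D4 in colon HF-low-suf replicate 2 was -1.68 while the others lay between -0.58 and -0.14. H2-Oa in liver HF-low-low replicate 3 was -1.41 while the others lay between -0.36 and 0.18, and this probe was well above background on no liver array.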

How the results depend on the processing

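Over all alternatives except leaving out single arrays, 729 of 788 values kept their direction and side of the threshold, or moved within their error, and 11 reversed. The number of the 42 genes called higher in colon was 7 with median centring in place of loess (against 7 higher in liver, where loess gave 4 and 10), and 2 without a mouse block, with the replicate block (the slide) in place of the mouse, within scan day 1, and in either diet alone. It ran from 2 to 4 when 1 array was left out, since H2-Ab1 kept its call in 10 and H2-Eb1 in 11 of 24 such fits. The adjusted P of H2-Ab1 and H2-Eb1 was 0.0637 and 0.0582 with the replicate block, 0.422 and 0.532 within scan day 1, and 0.0857 and 0.0721 with processed signals. The number called higher in liver was 7 to 12 over the alternatives and 10 without any single array. With median centring, Tap1 (-0.39), H2-Ke6 (-0.46) and H2-Bl (-0.47) no longer passed, while H2-Aa (0.79), Cd74 (0.68) and H2-DMb1 (0.59) newly passed. With processed signals H2-Oa (1.05) and H2-Ob (0.91) passed, and H2-Ea passed in the HF-low-low mice (-0.74) and within scan day 2 (-0.63). H2-Ob and H2-Ea were well above background on no array and H2-Oa on no liver array. No direction is therefore read for H2-Ob and H2-Ea, and only the bound given above for H2-Oa.

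Reversed values, none of which passed a test in either form, were those of H2-Ob with plain background subtraction (-0.28) and within scan day 1 (-0.12), H2-DMa with processed signals (0.23) and median centring (0.26), Ciita with the same 2 settings (0.12 and 0.016), Tap2 with median centring (0.29) and Cy3 alone (0.060), H2-DMb1 within scan day 1 (-0.035), and the colon diet values of H2-M10.2 with Cy3 alone (0.045) and H2-Aa within scan day 1 (0.24). H2-Ob and Ciita were not detected in either tissue, so their changes of sign are not read as changes of direction. The class I median was -0.49 over probes above background only, and -0.23 to -0.11 without any single array, and the class II median 0.092 to 0.30, while over 17 settings they ran from -0.49 to -0.075 and from -0.0042 (within scan day 1) to 0.48. The relation of H2-K1 and B2m in liver was r = 0.849 with median centring, and that of Tap1 and Psmb9 in liver 0.498 with processed signals and 0.505 with Cy3 alone. The cause was not tested in these cases.

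No gene of the 42 was called between diets under any of 15 alternatives or without any of 12 arrays per tissue. Over all probes the diet counts of 69 in colon and 48 in liver ran from 3 to 278 and from 2 to 144 over 13 alternatives, and from 23 to 257 and from 9 to 304 when 1 array was left out. Arrays that shared a replicate number shared a slide, and their deviations correlated at -0.085 to 0.238 in colon and at -0.50 to 0.528 in liver. These values had both signs and cannot show whether the numbers pair the mice. With the replicate block the count of all probes called between diets in colon was 92, that of all probes called between diets in liver was 131, and 0 of the 42 genes were called. The alternative with the main probe that shares the shortest run gave 11 genes higher in liver, and it and the alternatives for relations were chosen after seeing the data. Dim probes limit what could be compared for the 13 genes not detected.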

Other observations

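The level of a gene in the colon was set against its level in the liver of the same mouse for 4 genes chosen after the data were seen. Over 12 mice r was 0.612 for H2-Ab1 (rho = 0.517, permutation P = 0.0317, adjusted P = 0.0953 over 4 relations), 0.559 for Cd74 (rho = 0.636, permutation P = 0.0564, adjusted P = 0.0953), 0.539 for B2m (rho = 0.559, permutation P = 0.0715, adjusted P = 0.0953) and -0.0862 for H2-K1 (rho = 0.0420, permutation P = 0.784, adjusted P = 0.784). None passed adjustment. Without the 2 mice farthest from the median r was 0.523, 0.419, 0.243 and -0.279, and within the 2 scan days it was 0.670 and 0.540 for H2-Ab1, 0.536 and 0.765 for Cd74, 0.778 and 0.562 for B2m and -0.264 and 0.145 for H2-K1.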
